A study of Mus musculus with 4 samples.

Results

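MCAF1 and H4K20me3 were compared bin by bin in mouse embryonic stem cells, by chromatin immunoprecipitation followed by sequencing (ChIP-seq). The comparison used 2 of the 4 libraries of the series, those made with the antibodies against MCAF1 and H4K20me3, which were chosen by antibody and were the pair aligned with a seed of 36 bases. All libraries came from the V6.5 line of murine embryonic stem cells (strain C57BL/6-129), grown on irradiated feeder fibroblasts and then moved to gelatin without feeders, for 2 passages before the MCAF1, H4K20me3 and Ring1b experiments and for 1 passage before the REST experiment. No cells carried a further allele or treatment, and the cell type was taken from the labels and not checked here. Sonicated fragments averaged 500 bp, were amplified over 18 cycles and were cut from a gel at 150 to 300 bp for MCAF1 and Ring1b and at 150 to 350 bp for H4K20me3 and REST. The MCAF1 antibody came from Bethyl and the H4K20me3 antibody from Abcam. Each antibody had 1 library, sequenced on a separate flow cell per the labels, so target, antibody, gel slice and sequencing run cannot be told apart, every interval below covers counting error only, and no p-value is given. No input library was used here.

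MCAF1 (ATF7IP) binds SETDB1, the methyltransferase that places trimethyl groups on lysine 9 of histone H3 and silences many retroviral repeats in embryonic stem cells. MCAF1 keeps SETDB1 stable and in the nucleus. H4K20me3 is trimethylated lysine 20 of histone H4. It is written mainly by the SUV4-20H enzymes, which are recruited by the HP1 proteins that bind trimethylated H3 lysine 9, so that a protein of the SETDB1 pathway and a mark that follows from this pathway are set side by side here. Ring1b, which ubiquitinates histone H2A within Polycomb repressive complex 1, and REST, a repressor that binds DNA near neuronal genes, supplied reads that the comparison itself did not use.

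On chromosomes 1 to 19 the MCAF1 library held 12329774 reads with 1 reported location, of which 12.3% repeated a position and strand already seen. The H4K20me3 library held 7816678 such reads, of which 2.06% were repeats. After 1 read was kept per position and strand, 10818054 MCAF1 and 7655438 H4K20me3 reads remained, and MCAF1 was thinned at random to 7655438. The 3162616 MCAF1 reads left out served as a second sample of the same library. In both libraries, reads on opposite strands paired most often at a spacing near the length of the inserts, 84 bp for MCAF1 (1.72 times the distant level) and 97 bp for H4K20me3 (1.70 times). This excess had halved by 171 bp in MCAF1 and by 241 bp in H4K20me3, so reads of H4K20me3 clustered over somewhat longer distances. Of the H4K20me3 positions, 0.678% were also MCAF1 positions on the same strand, against 0.577% to 0.634% at displacements of 1 to 10 bp.

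The likeness of MCAF1 and H4K20me3 rose with the width of the bin. In 1 kb bins, which held 3.51 reads of each library on average, the Pearson correlation of the read numbers was 0.621 over 2183993 bins. It was 0.871 in 236591 bins of 10 kb, with 32.4 reads of each, and 0.955 in 23896 bins of 100 kb, with 320 reads of each. Much of that rise was counting error, which is large in small bins. Once the counting variance was subtracted, the correlation was 0.823 at 1 kb, 0.916 at 10 kb and 0.962 at 100 kb. The libraries still differed between bins by more than counting allowed. The measure was the root of a quotient, the mean squared read difference beyond counting error over the mean product of the read numbers. On the log2 scale this spread was 0.74 at 1 kb (1.67-fold), 0.45 at 10 kb (1.36-fold) and 0.27 at 100 kb (1.21-fold). Dense bins weigh most in it, so it is not the spread of the ratio in a typical bin. The bins of all scales share both libraries, their mapping and their base composition, so these values are descriptions.

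H4K20me3 was the more uneven of the pair at each width. Beyond counting error, its read number per bin varied by 1.16 times its mean at 1 kb, 0.901 at 10 kb and 0.721 at 100 kb. For MCAF1 the same coefficient of variation was 0.795, 0.686 and 0.591. Ring1b was more uneven than either, at 3.46, 2.55 and 1.29. REST lay above both at 1 kb (1.51) and 10 kb (1.02) and between them at 100 kb (0.622).

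The other pairs of libraries were less alike at 1 kb and 10 kb. For MCAF1 and REST the correlation less counting variance was 0.684, 0.806 and 0.930 from the narrowest to the widest bins, and for H4K20me3 and REST it was 0.623, 0.766 and 0.903. Pairs with Ring1b lay between 0.434 and 0.586. A few bins of very high read number carried weight in these figures. Without the 0.1% of bins that were highest in REST and Ring1b together, MCAF1 and H4K20me3 stood at 0.797, 0.905 and 0.959 and MCAF1 and REST at 0.717, 0.878 and 0.960, so that by this measure the MCAF1 profile at 100 kb was as close to REST as to H4K20me3. Without these bins, pairs with Ring1b lay between 0.543 and 0.673. The Spearman correlation uses ranks, over all bins with a read, and leaves counting error in. By it, pairs with Ring1b stood at 0.763 to 0.816 at 10 kb and at 0.910 to 0.938 at 100 kb. MCAF1 and H4K20me3 stood at 0.888 and 0.965 by the same measure. The libraries differ in depth and in alignment seed, whose part in the order of the pairs was not tested.

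**Figure D1:**
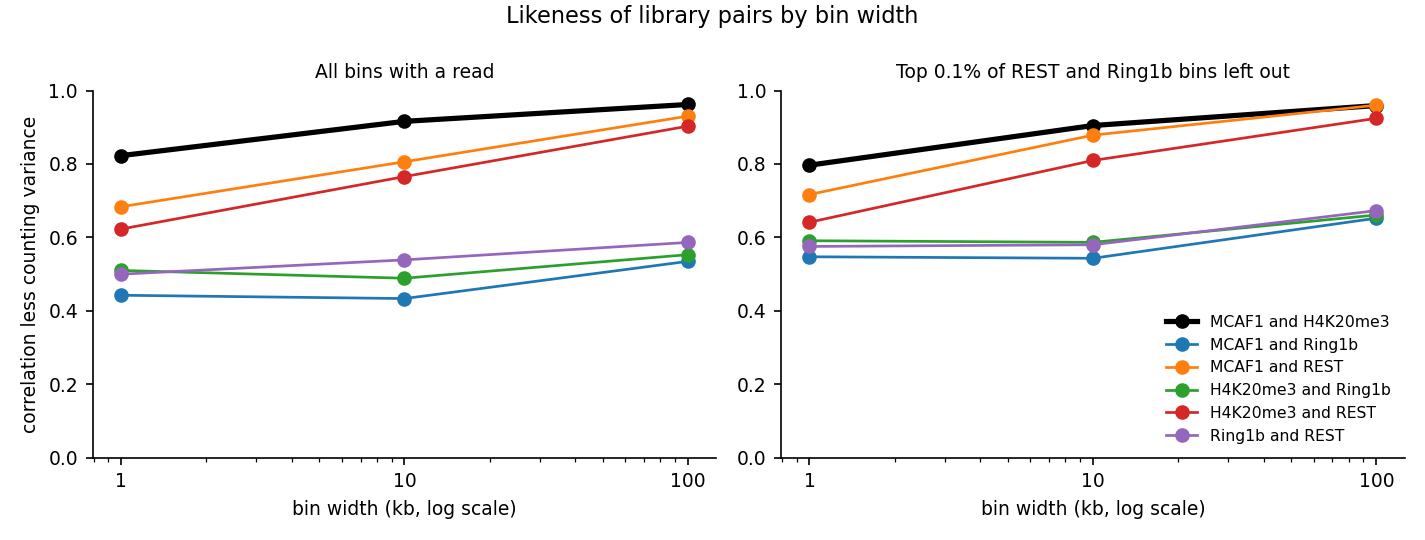
Correlation of read numbers less counting variance (vertical axis, no unit) against bin width (kb, log axis) for the 6 pairs of libraries, over all bins with a read (left) and without the 0.1% of bins highest in REST and Ring1b (right). MCAF1 and H4K20me3 (thick black line) lie highest at 1 kb and 10 kb, and on the right the line of MCAF1 and REST meets theirs at 100 kb.

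A bin was called higher in 1 library when the ratio at equal read number was at least 1.5 and the exact interval of the MCAF1 share, at an error level of 1e-06, excluded equality. This needs at least 21 reads of both libraries together, and bins with so many are the tested bins. With 30 reads a ratio of 14.0 was needed for a call, with 100 reads a ratio of 3.0, with 200 reads 2.08, and with 600 reads 1.51. The 77839 tested bins at 1 kb were 3.56% of all 1 kb bins and held 14.8% of the reads, whereas 86.2% of the 10 kb bins and 23668 of 23896 bins of 100 kb were tested. A 1 kb call therefore speaks of densely read places only, and numbers of calls cannot be compared between bin widths.

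H4K20me3 exceeded MCAF1 in 1229 of the tested 1 kb bins (1.58%), and MCAF1 exceeded H4K20me3 in 32 (0.0411%). At 10 kb the numbers were 1169 (0.573%) and 21 (0.0103%) of 203966 tested bins. At 100 kb the order turned, with 189 bins higher in H4K20me3 (0.799%) and 319 higher in MCAF1 (1.35%) of 23668. The direction at 100 kb varied with the centre of the ratio, the required ratio and the reads used. The median ratio of MCAF1 to H4K20me3 over tested bins was 0.733 at 1 kb, 1.07 at 10 kb and 1.07 at 100 kb (log2 values -0.45, 0.10 and 0.09). The value at 1 kb is over the densely read bins alone. With the ratio divided by its median, 351 bins were higher in H4K20me3 and 108 in MCAF1 at 1 kb, 1639 and 11 at 10 kb, and 409 and 110 at 100 kb. The MCAF1 share of the called 100 kb bins was then 21.2% in place of 62.8%. A lower required ratio (0.32 on the log2 scale) gave 743 H4K20me3 and 391 MCAF1 bins at 100 kb, and reads of the plus strand alone gave 153 and 52. The larger number of H4K20me3 bins at 1 kb and 10 kb held under each of these settings, and the direction at 100 kb did not.

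Called bins covered a small part of either library. The H4K20me3-higher bins held 0.873% of H4K20me3 reads at 1 kb, 2.26% at 10 kb and 1.68% at 100 kb, and the MCAF1-higher bins held 0.0232%, 0.0207% and 1.26% of MCAF1 reads. Below the call threshold the ratio was also wider than counting alone would give for bins of the same depth. In tested 100 kb bins 67.1% lay within 0.32 of equality on the log2 scale, against 96.5% from counting alone. MCAF1 was at least 1.5-fold higher in 7.00% and H4K20me3 in 1.44% of them, against 0.152% each. At 1 kb no such comparison is drawn, because the minimum of 21 reads selects 1 kb bins by the same reads.

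**Figure D2:**
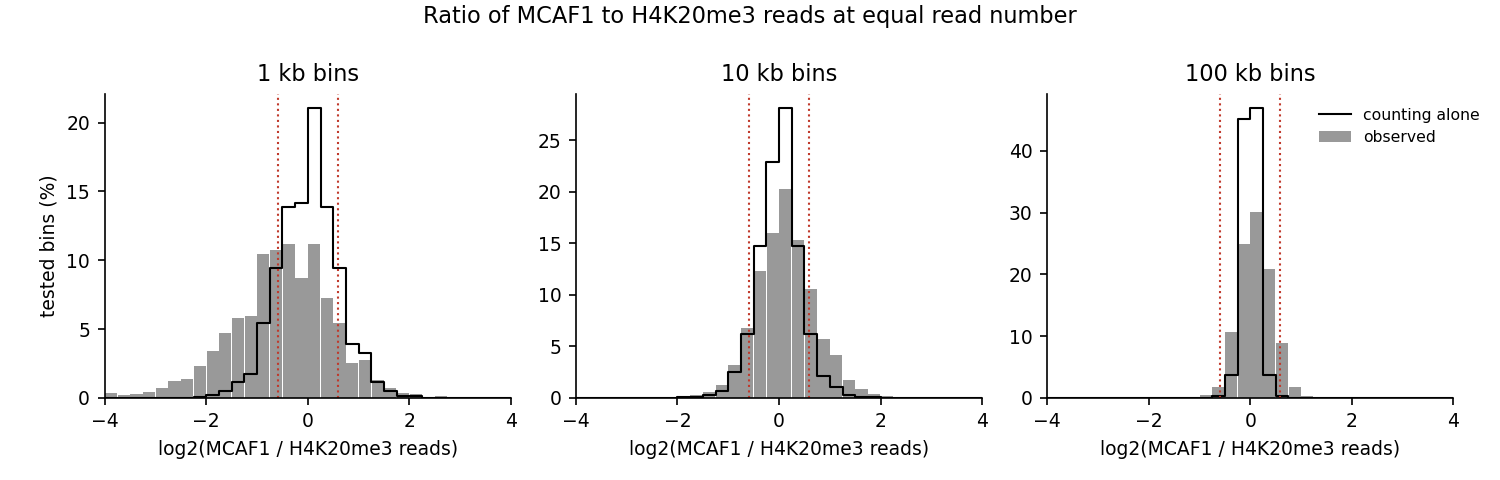
Percentage of tested bins (vertical axis) by log2 ratio of MCAF1 to H4K20me3 reads (horizontal axis) at 3 bin widths; grey bars are the observed bins, the black line is the binomial spread of equal libraries at the same depths, and dotted lines mark a ratio of 1.5 either way. The observed ratios are wider than the line at 10 kb and 100 kb, with a centre slightly above 0. At 1 kb the bins that reach the minimum read number have a tail towards H4K20me3. No comparison with the line is drawn there.

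The 1 kb bins higher in H4K20me3 were places of strong H4K20me3 with modest MCAF1. Their H4K20me3 density was 15.5 times the autosomal mean (95% Poisson interval 15.4 to 15.6) and their MCAF1 density 2.80 times (2.75 to 2.85). By the reads used, MCAF1 was above its mean there but below its 3.39 times in the tested bins that were not called. The call itself favours bins with few of these MCAF1 reads. The MCAF1 reads left out by thinning, which the call had not used, gave 3.30 times (3.22 to 3.38) in the H4K20me3 bins and 2.99 times in the tested bins not called, so that MCAF1 was not lower in the H4K20me3 bins. Of these 1229 bins, 24 held 0 of the MCAF1 reads used.

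**Figure D3:**
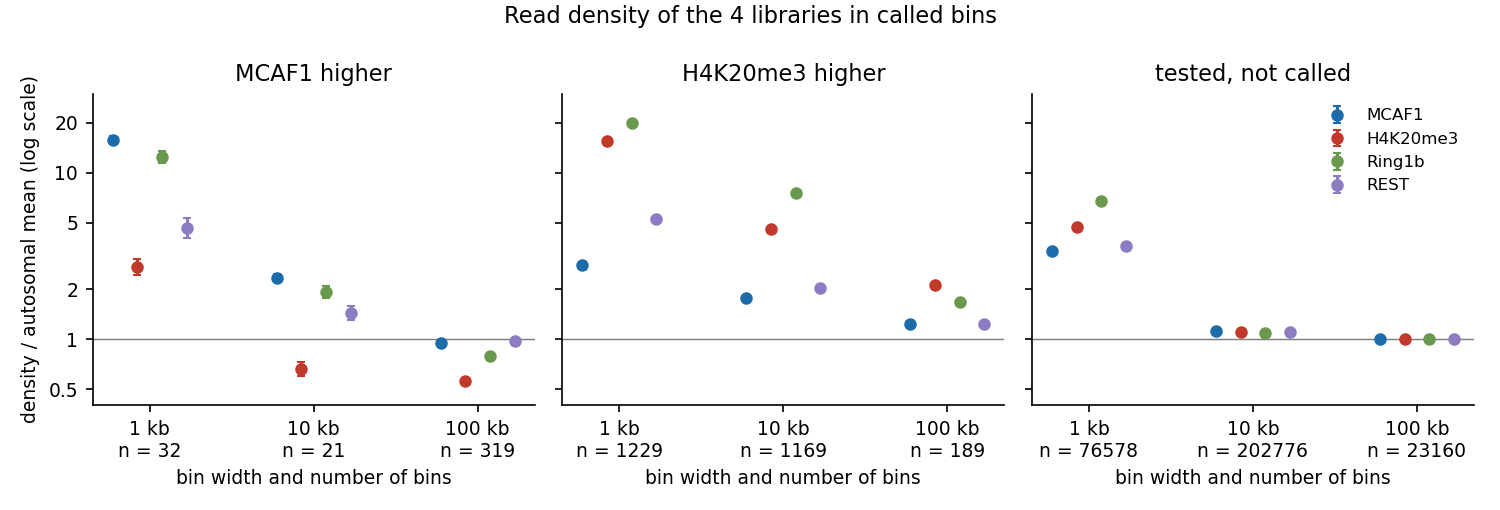
Read density over the autosomal mean (log axis) of the 4 libraries, for bins called higher in MCAF1, higher in H4K20me3 and tested but not called, at each bin width; n is the number of bins and error bars are 95% Poisson intervals, mostly smaller than the points. MCAF1 and H4K20me3 were used for the call and differ in the left and middle panels by its construction, whereas Ring1b and REST were not used.

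Many of these bins were rich in Ring1b, and many were not. Ring1b density over the 1229 bins was 19.9 times its mean (19.7 to 20.1), with a median per bin of 9.39 times, and REST density was 5.26 times. The tested bins not called stood at 6.78 and 3.62 times, but they were also less dense in H4K20me3, at 4.73 times, so the sets are not matched for density. Divided by Ring1b density, with limits chosen after the values were seen, 729 bins (59.3%) held Ring1b at 5 times its mean or more, 146 (11.9%) at 2 to 5 times and 354 (28.8%) below 2 times. Among tested bins not called the shares were 37.7%, 32.0% and 30.4%. H4K20me3 was about as dense in the Ring1b-rich bins (16.1 times) as in the Ring1b-poor bins (14.0 times), whereas Ring1b differed between them at 32.6 against 0.639 times. By the reads used in the call, MCAF1 was at 3.31 times in the Ring1b-rich and 1.80 times in the Ring1b-poor bins. In tested bins not called it was at 3.84 and 2.93 times.

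The 5 named 1 kb bins farthest from equality towards H4K20me3 had 1 to 5 Ring1b reads each, or 0.722 to 3.61 times the Ring1b mean. At chr14:13143001-13144000 (mm8, as all coordinates here) there were 6 MCAF1 and 117 H4K20me3 reads, a 19.5-fold difference (95% interval 8.69 to 54.2), with 5 Ring1b and 2 REST reads. The bin at chr17:6594001-6595000 held 7 and 120 reads (17.1-fold, 8.07 to 43.6), with 3 Ring1b reads. On chromosome 4, the bin at chr4:63064001-63065000 held 7 and 112 reads (16-fold), the bin at chr4:43564001-43565000 held 6 and 105 (17.5-fold), and the bin at chr4:155021001-155022000 held 9 and 123 (13.7-fold). Each of these 3 had 1 Ring1b read. The last of them lay 7.66 kb from the final read of the chromosome. All 5 belonged to joined stretches of 2 to 6 neighbouring called bins, whereas of the 1110 stretches in all, 87 were longer than 1 bin, up to 7 kb. Near the threshold the called bin at chr17:39452001-39453000 held 741 and 1128 reads (1.52-fold), with 1569 Ring1b and 1153 REST reads, and the bin at chr11:3033001-3034000, with 93 and 138 reads (1.48-fold), was not called.

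The flanks of the H4K20me3 bins differed with their Ring1b density. Around Ring1b-rich stretches the ratio of MCAF1 to H4K20me3 rose from 0.205 in the called bins to 0.565 at 1 kb, 0.795 at 2 kb and 0.913 at 6 to 10 kb. Around Ring1b-poor stretches it rose from 0.133 to 0.381 at 1 kb, 0.469 at 2 kb, 0.568 at 4 to 5 kb and 0.655 at 6 to 10 kb (0.641 to 0.669), and reached 0.911 at 21 to 50 kb. H4K20me3 density fell beside both kinds, from 16.1 in the called bins to 5.14 at 1 kb and 1.75 at 6 to 10 kb around Ring1b-rich stretches, and from 14.4 to 4.56 and 2.13 around Ring1b-poor stretches. MCAF1 density was 2.90 at 1 kb beside the Ring1b-rich and 1.74 beside the Ring1b-poor stretches. Ring1b itself stood at 6.42 at 2 kb and 4.20 at 3 kb beside the Ring1b-rich stretches. Single sites differed in shape. The bin at chr12:52515001-52516000 held 4 MCAF1, 80 H4K20me3, 75 Ring1b and 12 REST reads, and its neighbours held 15 and 2 H4K20me3 reads. The bin at chr17:6590001-6591000 lay in a broader domain, with 15 MCAF1, 166 H4K20me3 and 1 Ring1b read and with 119 and 110 H4K20me3 reads in the bins on either side.

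**Figure D4:**
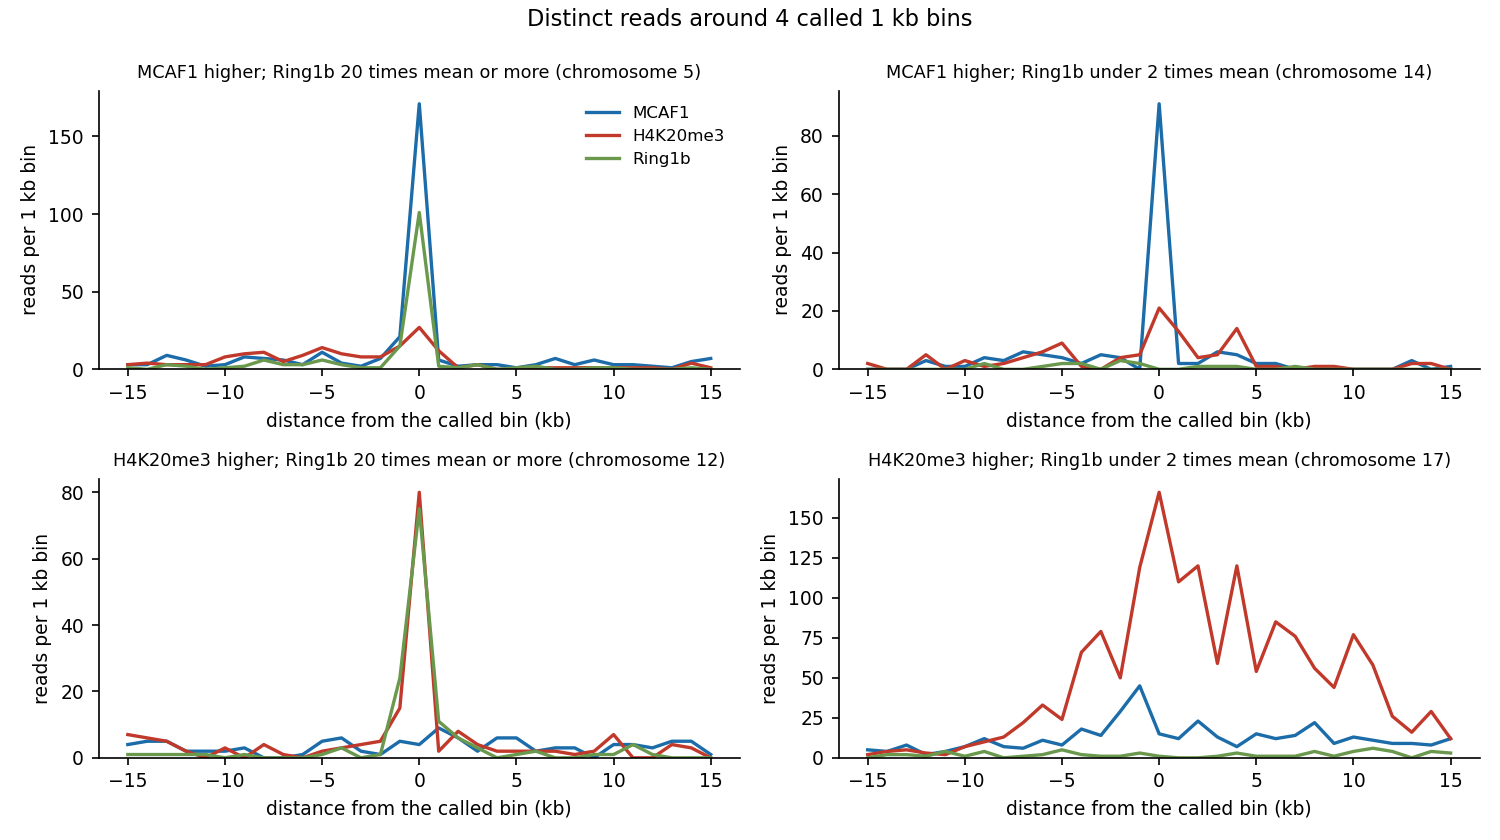
Distinct reads per 1 kb bin (vertical axis) of MCAF1, H4K20me3 and Ring1b against distance from the called bin (kb) at 4 called bins, after thinning of MCAF1. MCAF1 peaks of 171 and 91 reads (top) and the H4K20me3 peak of 80 reads with Ring1b (bottom left) are each about 1 bin wide, whereas H4K20me3 on chromosome 17 (bottom right) stays high over more than 10 kb with Ring1b near 0.

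At 10 kb the H4K20me3 bins had H4K20me3 at 4.58 times its mean and MCAF1 at 1.77 times. Of the 1229 bins called at 1 kb, 655 (53.3%) lay inside a 10 kb bin called the same way and 0 inside one called the other way. The wider bin includes the reads of the narrow one, so this agreement is partly built in. Of all tested 10 kb bins, 0.573% were called higher in H4K20me3 and 0.0103% higher in MCAF1. Ring1b was at 7.61 times its mean over the 1169 bins, but the median bin had 2.11 times. By the same limits, 395 bins (33.8%) held Ring1b at 5 times its mean or more and 576 (49.3%) below 2 times. Among tested bins not called, 1.23% held Ring1b at 5 times or more and 90.4% below 2 times. Those bins were also less dense in H4K20me3, at 1.11 times its mean, so the sets are not matched for density.

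Of the 5 named 10 kb bins farthest from equality, 3 held Ring1b below 2 times its mean. The bin at chr14:13140001-13150000 held 70 MCAF1 and 578 H4K20me3 reads (8.26-fold, 6.43 to 10.7), with Ring1b at 2.03 times its mean. The bin at chr17:6590001-6600000 held 142 and 890 reads (6.27-fold), that at chr4:155010001-155020000 held 98 and 613 (6.26-fold), and that at chr9:121170001-121180000 held 53 and 332 (6.26-fold). In these 3, Ring1b stood at 1.02, 1.64 and 0.391 times its mean. The bin at chr9:123770001-123780000 held 183 and 844 reads (4.61-fold), with Ring1b at 5.09 times. The longest joined stretch ran over 80 kb at chr10:82790001-82870000, with 479 MCAF1 and 1788 H4K20me3 reads (3.73-fold, 3.37 to 4.14) and Ring1b at 0.509 times its mean. The next, of 30 kb each, were chr17:6580001-6610000 (398 and 1592 reads, 4.0-fold) and chr16:22300001-22330000 (328 and 1259 reads, 3.84-fold).

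At 100 kb the 189 bins higher in H4K20me3 had H4K20me3 at 2.12 times its mean, MCAF1 at 1.24 times and Ring1b at 1.68 times, with a median of 0.941 times for Ring1b. Much of each difference sat in part of the bin. A median of 9 of the 10 sub-bins of 10 kb were on the H4K20me3 side, 144 bins (76.2%) held a called 10 kb bin, and the sub-bin with the largest excess carried a median of 32.8% of the excess. Without that sub-bin, 83 of the 189 were still at least 1.5-fold. The sub-bins were counted with the reads that made the call, so these values are partly built in. The most unequal was chr4:155000001-155100000, with 259 MCAF1 and 1346 H4K20me3 reads (5.20-fold, 4.55 to 5.96), a bin that ran past the last read of the chromosome. It was followed by chr17:6500001-6600000 (338 and 1333, 3.94-fold), chr14:13100001-13200000 (186 and 703, 3.78-fold), chr10:82800001-82900000 (463 and 1663, 3.59-fold) and chr9:123700001-123800000 (468 and 1612, 3.44-fold). The longest stretch was 400 kb at chr15:87100001-87500000, with 1465 and 2574 reads (1.76-fold, 1.65 to 1.87). At the threshold, chr4:152300001-152400000 was called with 558 and 837 reads, and chr4:57900001-58000000, with 632 and 946, was not.

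The 32 bins of 1 kb that were higher in MCAF1 were isolated peaks. Their MCAF1 density was 15.8 times the autosomal mean (15.1 to 16.6) and their H4K20me3 density 2.73 times (2.43 to 3.05). The left-out MCAF1 reads, not used by the call, stood at 15.4 times (14.3 to 16.6). None of the 32 touched another. The ratio of MCAF1 to H4K20me3 fell from 5.80 in the bin to 0.843 (0.756 to 0.941) in the bins 1 kb away, where MCAF1 density was 2.71 times its mean, and it lay between 0.923 and 1.04 from 2 to 100 kb away.

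Ring1b was dense in most but not all MCAF1 peaks. Over the 32 bins Ring1b stood at 12.5 times its mean (median 8.31) and REST at 4.66 times. Ring1b was at 5 times its mean or more in 18 bins (56.3%), close to the 59.3% of the H4K20me3-higher bins, and below 2 times in 7 (21.9%). Among tested 1 kb bins not called the shares were 37.7% and 30.4%. Those bins were less dense in MCAF1, at 3.39 times its mean, so the sets are not matched for density. The bin farthest from equality was chr5:138510001-138511000, with 171 MCAF1, 27 H4K20me3, 101 Ring1b and 3 REST reads (6.33-fold, 4.20 to 9.89). The bins at chr4:128615001-128616000 (85 MCAF1 and 14 H4K20me3 reads, 6.07-fold) and chr11:3549001-3550000 (76 and 12, 6.33-fold) held 49 and 42 Ring1b reads. Ring1b was sparse in the other 2 named bins. At chr10:127077001-127078000 there were 94 MCAF1, 14 H4K20me3 and 3 Ring1b reads (6.71-fold, 3.81 to 12.8), and at chr14:55191001-55192000 there were 91, 21 and 0 (4.33-fold, 2.67 to 7.34). These 2 bins also held 48 and 38 MCAF1 reads with 2 reported locations, against 0 of H4K20me3. The other 3 held 0 of either library. Closest to the threshold were a called bin at chr2:162767001-162768000 (66 and 17 reads, 3.88-fold) and, not called, chr5:3000001-3001000, which held 319 MCAF1 and 214 H4K20me3 reads and also 283 Ring1b and 277 REST reads.

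Bins of 10 kb seldom exceeded H4K20me3 in MCAF1. All 21 were single, with MCAF1 at 2.34 times its mean, H4K20me3 at 0.664 times and Ring1b at 1.93 times (median 1.33). Ring1b was below 2 times its mean in 16 of them (76.2%), against 90.4% of the tested bins not called. The latter were less dense in MCAF1, at 1.12 times its mean, so these sets are not matched for density either. The first by distance from equality again held the chromosome 5 peak (chr5:138510001-138520000, 205 and 47 reads, 4.36-fold), and 171 of its 205 MCAF1 reads came from the 1 kb bin above. The bin at chr11:3540001-3550000 (134 and 44, 3.05-fold) also held a named 1 kb bin. The others were chr9:78150001-78160000 (113 and 33 reads, 3.42-fold), chr1:133710001-133720000 (86 and 25, 3.44-fold) and chr3:95930001-95940000 (55 and 11, 5.0-fold). Of the 32 bins called at 1 kb, 6 lay in such a 10 kb bin, which includes their reads.

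The 100 kb bins higher in MCAF1 had MCAF1 near its mean and H4K20me3 below its mean. Their MCAF1 density was 0.945 times the autosomal mean (0.939 to 0.951) and H4K20me3 was at 0.564 times (0.559 to 0.568). Both values use the reads of the call, which favours bins with few of these H4K20me3 reads. In 52 bins called from the plus strand, minus-strand H4K20me3 stood at 0.671 times. Tested bins not called had a median H4K20me3 density of 0.846 times and a 10th percentile of 0.293 times, so values near 0.564 also occur among them. The left-out MCAF1 reads gave 0.896 times, REST 0.974 times and Ring1b 0.791 times. By the reads that made the call, a median of 10 of 10 sub-bins and never fewer than 7 were on the MCAF1 side. All 10 were so in 174 of 319 bins, and 243 were still at least 1.5-fold without the sub-bin of largest excess. Sub-bins of a called bin tend to lie on its side because they share its reads. How far the difference is spread was not tested with other reads. Ring1b was below 2 times its mean in 318 of the 319, and also in 92.0% of the tested 100 kb bins that were not called. The bin farthest from equality was chr3:86400001-86500000, with 251 MCAF1 and 107 H4K20me3 reads (2.35-fold, 1.86 to 2.97) and 76 Ring1b reads. Next came chr15:35400001-35500000 (242 and 105 reads, 2.30-fold), chr18:50000001-50100000 (253 and 116, 2.18-fold), chr6:119900001-120000000 (277 and 132, 2.10-fold) and chr9:71800001-71900000 (277 and 133, 2.08-fold). The longest stretch, 300 kb at chr15:35400001-35700000, held 656 and 315 reads (2.08-fold, 1.82 to 2.39). The called bin nearest the threshold was chr2:118700001-118800000 (450 and 300 reads), and chr12:65800001-65900000 (361 and 241) was not called.

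The ratio in neighbouring bins was alike over long distances. For 100 kb bins the correlation of the log2 ratio was 0.465 between neighbours, 0.321 at 500 kb, 0.266 at 1000 kb and 0.117 at 5000 kb. For 10 kb bins, where counting error is larger, it was 0.265 between neighbours and 0.0867 at 500 kb.

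Reads that had not made the calls lay on the same side in nearly all bins. When bins were called from the plus strand, the minus strand of the same library gave H4K20me3 over MCAF1 of 3.39 in 169 bins of 1 kb (4.26 on the plus strand), 2.56 in 300 bins of 10 kb (2.99) and 1.59 in 153 bins of 100 kb (1.70). The minus strand was on the H4K20me3 side in 169, 299 and 153 of these bins. For MCAF1 the same step gave 5.44-fold in 5 bins of 1 kb (6.28 on the plus strand), 1.51-fold in 3 bins of 10 kb (1.97) and 1.51-fold in 52 bins of 100 kb (1.95), with each bin on the MCAF1 side. Reads with 2 reported locations had a ratio of MCAF1 to H4K20me3 of 0.933 over chromosomes 1 to 19, scaled by the distinct reads with 1 location. Theirs was 0.276 in H4K20me3-higher 1 kb bins, 0.452 at 10 kb and 0.645 at 100 kb. In MCAF1-higher bins it was 5.57 at 1 kb (3.63 to 8.91), 2.41 at 10 kb and 1.19 at 100 kb. Few bins carried the narrow values, since 21 of the 32 bins of 1 kb held 0 such MCAF1 reads. Of the 189 such reads at 1 kb, chr10:127077001-127078000 held 48 and chr14:55191001-55192000 held 38. At 10 kb, chr10:127070001-127080000 held 49 of 136. Strands and locations share 1 library and are no replicate of it.

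The ratio also changed with the read density of the libraries that were not compared. Bins of 10 kb were ordered by their REST and Ring1b reads together and divided into 10 groups. The ratio of MCAF1 to H4K20me3 was 0.975 in the lowest group, rose to 1.15 in the third and fell from there to 0.850 (0.849 to 0.852) in the highest. The same order held for 100 kb bins, with 1.03 in the lowest group, 1.20 in the third and 0.874 in the highest. The highest group of 10 kb bins by both libraries together held 621 of the 1169 bins called higher in H4K20me3. Ordering by REST alone or Ring1b alone gave a ratio of 0.862 and 0.854 in the highest group, with 537 and 610 of these bins. Of the 319 bins of 100 kb called higher in MCAF1, the lowest group held 0, the third 31, the sixth 73 and the highest 2. The lowest group had 209998 MCAF1 reads in 2395 bins and the sixth 772426 in 2365. A bin with fewer reads needs a larger ratio for a call. Numbers of called bins therefore cannot be compared between groups at either width. Base composition and the ease of mapping were not measured here, and their part in the change of the ratio was not tested.

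**Figure D5:**
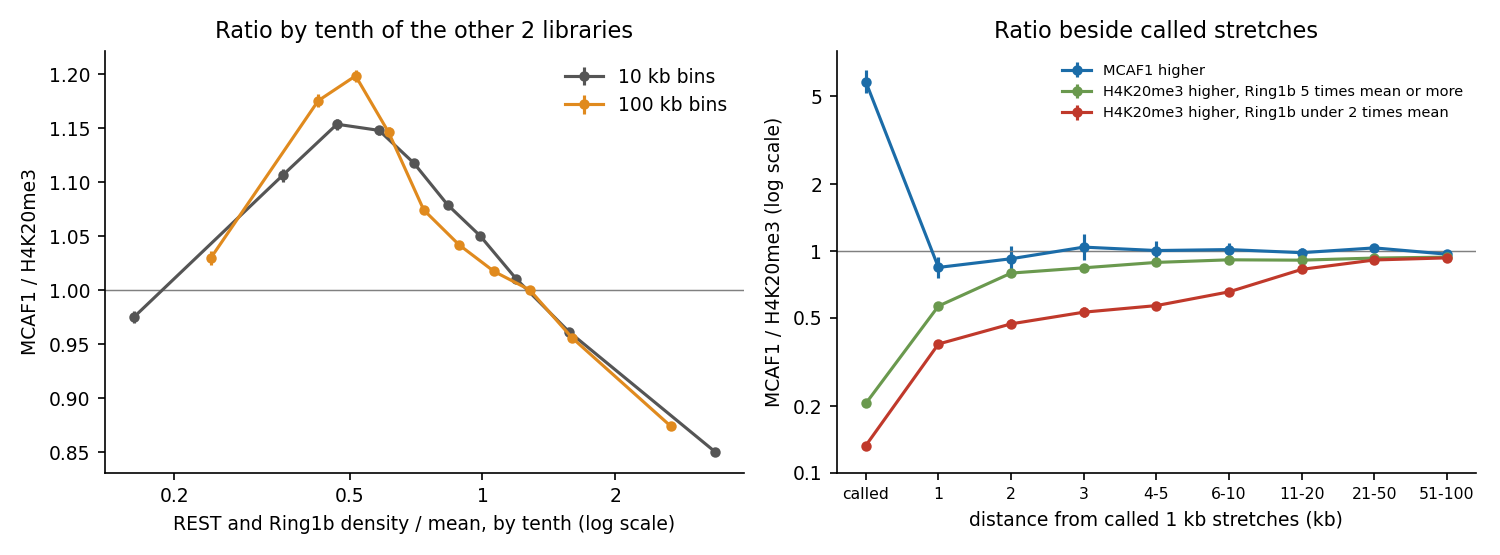
Left, ratio of MCAF1 to H4K20me3 against the density of REST and Ring1b reads over their mean (log axis) in 10 groups of 10 kb and 100 kb bins. Right, the same ratio (log axis) by distance in kb from called 1 kb stretches; error bars are 95% intervals, and the MCAF1 line falls from 5.80 to 0.843 within 1 kb while the line of Ring1b-poor H4K20me3 stretches is still at 0.655 at 6 to 10 kb.

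Between whole chromosomes the ratio moved little. It was lowest on chromosomes 7 (0.944), 17 (0.945) and 11 (0.956) and highest on chromosomes 3 (1.07) and 16 (1.04). Chromosome 17 had 18 bins of 100 kb higher in H4K20me3 and 7 higher in MCAF1, whereas chromosome 2 had 2 and 27. Over all 19 chromosomes, 0.799% and 1.35% of the tested 100 kb bins were called so. Chromosomes differ in length and shares for each are not given, so these counts are examples only. The direction at 100 kb also varied with the centre of the ratio, as given above. Near the distal ends, which are the telomeres away from the centromere in mouse, the ratio did not fall steadily. It was 0.905 at 2 to 5 Mb from the last read and 0.907 at 5 to 10 Mb. At these distances it was below 1 on 14 and 15 of 19 chromosomes. H4K20me3 density was 1.48 and 1.44 times the mean there. At the same distances from the first read of the proximal ends the ratio was 0.996 and 1.02.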

How the data were processed

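The authors deposited read positions, not counts: each entry is 1 reported alignment, and its sign gives the strand (per the file headers). Reads were aligned to mm8 with Bowtie, per the submitters' processing notes, with no version stated in the sources used here. The headers give at most 2 locations a read, 2 mismatches in the seed, a quality sum of 70 over mismatches, and a seed of 36 bases for MCAF1 and H4K20me3 against 26 for REST and Ring1b. The sources used here do not say whether minus-strand positions are leftmost or 5′ bases. Positions were taken to start at 0 and are printed from 1.

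Reads with 1 location were reduced to 1 per position and strand, moved 75 bp towards their 3′ end, thinned (seed 1) and counted in bins of 1, 10 and 100 kb on chromosomes 1 to 19. Bins without a read of any library were left out. Densities are relative to the mean over covered bins. Correlations less counting variance divide the covariance by the variances less the means. The ratio and its intervals come from the exact Clopper-Pearson interval of the MCAF1 share, at an error level of 1e-06 for calls and 95% where printed, and density intervals are exact Poisson; since amplified reads are not independent molecules, they cover counting error only.

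The members, bin widths and tests were chosen with earlier results of these data known. Named bins are, for each width and direction, the 5 with the interval bound farthest from equality (1 per joined stretch), the 3 longest joined stretches at 10 and 100 kb and the bins nearest the fold threshold; examples are given. The Ring1b limits of 2, 5 and 20 times its mean were chosen after its values were seen. Alternatives changed the thinning, repeated positions, locations, shift, grid, strand, fold, confidence and centre of the ratio. Calls were tested on simulated data. A genome or annotation of mm8 was not used here, so gene names, base composition and sequences are not given. The tools were Python 3.11.15 with pandas 2.3.3, numpy 2.4.6, matplotlib 3.10.9 and scipy 1.17.1.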

Additional observations from a re-analysis of the deposited data

Results flagged for a closer look

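These values are given because the comparison of bins left these reads out. No control library was used here, so their presence shows nothing more. Distinct reads with 2 reported locations on chromosomes 1 to 19 numbered 696981 for MCAF1 and 528909 for H4K20me3. On the X chromosome 202556 distinct MCAF1 and 125044 H4K20me3 reads had 1 location, a ratio of MCAF1 to H4K20me3 of 1.15 (1.14 to 1.15) when scaled by the reads of chromosomes 1 to 19. On the Y chromosome there were 2959 and 2490, a ratio of 0.841 (0.797 to 0.887). The mitochondrial genome had 3309 and 448, a ratio of 5.23 (4.73 to 5.78).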

How the results depend on the processing

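No correlation or ratio of called bins changed sign under any alternative run, but the split of calls at 100 kb turned over as given above. Of the alternative values of the counts and correlations, 76 stayed within 1.5 times of the main count or within a narrow interval over bins of the main correlation, and 47 did not. Values below are for 1, 10 and 100 kb in that order. The correlation less counting variance was 0.821 and 0.915 with a second draw (1 and 10 kb), 0.822 when thinned over all chromosomes (1 kb), 0.766, 0.877 and 0.953 with all reads kept, 0.825, 0.915 and 0.961 with reads of 1 or 2 locations, 0.825 without a shift (1 kb), 0.914 and 0.961 on a grid moved by 0.5 bin (10 and 100 kb), and 0.797, 0.905 and 0.959 without the densest 0.1% of bins. Single strands gave 0.836 and 0.918 (plus) and 0.838 and 0.919 (minus) at 1 and 10 kb. Without thinning, 1973 bins of 1 kb were higher in H4K20me3. MCAF1-higher bins numbered 76 and 40 at 1 and 10 kb with all reads kept and 51 and 33 with reads of 1 or 2 locations. With fewer reads, calls of MCAF1 and H4K20me3 fell to 5 and 169 at 1 kb and 3 and 300 at 10 kb on the plus strand, to 3 and 178 and to 4 and 316 on the minus strand, and MCAF1 calls at 100 kb to 52 and 42. At 100 kb a ratio of 2 left 46 MCAF1 and 28 H4K20me3 bins, and a lower ratio (0.32 on the log2 scale) gave 743 for H4K20me3. An interval at an error level of 0.001 gave 560 and 6913 at 1 kb, 1437 and 4465 at 10 kb and 1241 MCAF1 bins at 100 kb. Division by the median ratio gave 108 and 351 at 1 kb, 11 for MCAF1 at 10 kb, and 110 and 409 at 100 kb. Placing minus-strand reads at their 5′ base, by 35 bp, was chosen after seeing the data and gave 33 and 1220, 20 and 1173, and 317 and 188. The classes of genes and base composition that were planned for an mm8 annotation were not run. No paired analysis was possible because each antibody has 1 library.

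Depth limited the narrow bins most, since 1 kb bins with 30 reads needed a 14.0-fold difference. Only 3.56% of 1 kb bins reached the minimum of 21 reads, and in the others a difference of any size could not be called. The few MCAF1-higher bins of 1 kb are therefore no measure of how often MCAF1 exceeds H4K20me3 at that width.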
